A study of Mus musculus with 12 samples.

Results

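The mitochondrial ribosomal protein genes were followed across untreated and retinoic acid (RA)-treated neural progenitor cells with and without Faf2. Members were all genes of the deposited table whose symbol was Mrpl or Mrps followed by a number and at most 1 letter from a to d, and 78 of 57010 genes met this rule. All 78 passed the filter on low counts, together with 16502 genes in all, and no member had fewer than 3 counts in any library.

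Bulk RNA-Seq was available for 12 libraries of NE-4C cells, a neural progenitor line derived from embryonic mouse brain that lacks p53. The 4 groups held 3 libraries each: wildtype cells without induction (WT NO), wildtype cells induced with RA (WT RA), Faf2 KO cells without induction (KO NO) and Faf2 KO cells induced with RA (KO RA). RA was given at 1 µM for 24 h and those cells were collected on day 3, while the NO cells were collected on day 0, so RA and days of culture cannot be told apart. The KO was 1 line grown from a picked colony after deletion of exon 4 of Faf2, so the genotype cannot be told apart from that line, and the libraries of a group came from independent passages of 1 line. In bulk RNA, fewer cells of a type and less RNA per cell cannot be told apart either.

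Mitochondrial ribosomal proteins are made in the cytosol from nuclear genes, imported into mitochondria, and assembled with mitochondrially encoded ribosomal RNAs into a large (Mrpl) and a small (Mrps) subunit. The finished ribosome translates the mitochondrially encoded subunits of the respiratory chain and ATP synthase. Some of the proteins have bacterial relatives and others were added in the mitochondrial lineage, and a few carry names that do not match their place: Mrps30 and Mrps18a sit in the large subunit, and Mrps36 is a component of the 2-oxoglutarate dehydrogenase complex of the citric acid cycle. By these roles the 78 genes fell into 30 large-subunit proteins with bacterial homologues, 21 large-subunit proteins specific to mitochondria, 16 small-subunit proteins with bacterial homologues, 10 small-subunit proteins specific to mitochondria, and Mrps36.

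The 78 genes lay on 17 chromosomes, with 11 on chromosome 11, 8 on chromosome 17 and 5 on chromosome 13, and their canonical transcripts had 2 to 12 exons (GENCODE on GRCm39). Binding sites of NRF1, a transcription factor of nuclear genes for mitochondrial proteins, are a known feature of such promoters, so the promoter window from 250 bases before to 50 bases after the start of each canonical transcript was searched on both strands. The letters GCGCANGCG, the core of the NRF1 motif, were present in 16 members (20.5%) and in 8.08% of the 21770 windows of all protein-coding genes. The letters CCGGAAG, the core bound by ETS factors such as GABPA, were present in 24 members (30.8%) and in 10.3% of all windows. The letters AAGATGGCG, a YY1 core, were present in 4 members (5.13%) and in 1.34% of all windows. Counted together, 38 members (48.7%) and 17.8% of all windows held any of these 3, and the median GC content was 57.5% in members and 54.3% in all windows. The motifs were counted independently of each other and a match is a match of letters only. All windows include genes that are not expressed in these cells, whereas every member is. Shares among the genes tested were not counted.

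The stretches below carry the NRF1 letters in capitals with 10 bases on either side, written 5′ to 3′ on the strand of the gene. They show the core in members with different outcomes in the TMM-scaled fit without KO RA replicate 3 that follows. Mrpl12 and Mrpl30 were called lower in the KO than in wildtype cells after RA (neither was with library totals or with all 12 libraries). Mrpl10 and Mrpl44 were called lower after RA in wildtype cells, and Mrpl10 also after RA in KO cells (there not with library totals). Mrps6 was called lower in the untreated KO and Mrps18b was called in no comparison. With library totals Mrpl12 and Mrps18b were called lower after RA in wildtype cells. Where the capitals begin with CGC rather than GCGC, the match was on the opposite strand.
Mrpl10: cccagctccaCGCATGCGCatagcggccc
Mrpl12: attgtctccgCGCCTGCGCgtcgcaccgc
Mrpl30: gacgccgctgCGCCTGCGCtgtcttctat
Mrpl44: agaagcacttGCGCACGCGcagtacacta
Mrps18b: aacggcccgaCGCATGCGCactgggagca
Mrps6: ccgcaccgcgGCGCACGCGcactcgctcg
These lie on GRCm39 at chr11:96932263-96932291 (plus strand), chr11:120375373-120375401 (plus), chr1:37929466-37929494 (plus), chr1:79753690-79753718 (plus), chr17:36227538-36227566 (minus) and chr16:91854842-91854870 (plus), in the order given. All 6 are upstream of the annotated start, with the first capital 99, 56, 82, 35, 66 and 113 bases before it.

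Several members shared a start region with another gene. A divergent protein-coding start lay within 1000 bases in 14 members (17.9%), against 5.05% of all protein-coding genes, expressed in these cells or not. Mrpl46 and Mrps11, one protein of each subunit, faced away from each other with starts 30 bases apart. Mrps12 began 129 bases from Sars2, the mitochondrial seryl-tRNA synthetase, and Mrpl43 began 56 bases from Twnk, the mitochondrial DNA helicase. Exons of 41 members overlapped exons of another protein-coding gene, in 4 members on the same strand (Mrps15, Mrps24, Mrps34 and Mrps6), and the strandedness of the libraries was not given in the sources used here. The counts of these members, and of Mrpl48, whose annotated pseudogene took 22.8 to 36.6% of the pair's counts, are therefore uncertain, whereas the pseudogenes of Mrps36 took at most 4.51%.

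Library totals ranged from 17370069 to 30738717 counts. KO RA replicate 3 stood apart, with 62.5% of its counts in its 100 most abundant genes (37.1 to 50.4% elsewhere), 23.5% in mitochondrially encoded genes (9.10 to 17.7% elsewhere) and a TMM scaling factor of 0.394 (0.872 to 1.28 elsewhere), so the members' counts and medians are given with and without it. Faf2, the targeted gene, was at 36.0 to 50.0 CPM (counts scaled to the TMM-adjusted library size) in WT NO and 21.0 to 25.4 in KO NO, but at 35.1 to 49.1 in WT RA and 18.7 to 36.1 in KO RA, where the groups overlapped. Since a gene-level count includes transcripts that lack exon 4, it is a partial check of the labels. Of 9 marker lists, 5 neural progenitor markers summed to 254 to 313 CPM in WT NO, WT RA and KO NO and 169 to 324 in KO RA. Single progenitor markers differed more between groups than this sum. In WT NO, WT RA, KO NO and KO RA, Otx2 had means of 149, 123, 152 and 68.6 CPM. Those of Sox2 were 36.9, 76.2, 60.7 and 70.7, and those of Pax6 7.40, 13.8, 1.30 and 2.98. Nes had 49.2, 38.3, 34.5 and 65.1, and Cdh2 40.8, 42.2, 25.6 and 62.3 CPM. The 6 neuron markers summed to 69.5 to 107 CPM in the NO groups and 138 to 203 in the RA groups. Stmn2 was the highest of the 6 neuron markers in every library (35.9 to 165 CPM). The means of Stmn2, Map2, Dcx and Tubb3 were higher with RA in both genotypes. Map2 was at 2.32 to 4.81 CPM in WT NO and 8.55 to 15.2 in WT RA. In KO cells it was at 2.49 to 3.46 (NO) and 7.73 to 36.6 CPM (RA). The mean of Rbfox3 was lower with RA (0.353 in WT RA and 0.445 in KO RA, against 2.37 in WT NO and 1.62 in KO NO). The mean of Elavl3 was lower in WT RA (2.13) than in WT NO (3.17 CPM). It was higher in KO RA (1.68) than in KO NO (0.946 CPM). In KO RA replicate 3 Dcx (1.49) and Elavl3 (0.496 CPM) lay below KO NO. The sum of 5 mesenchymal markers was 4.66 to 79.3 CPM (WT NO), 7.02 to 15.5 (KO NO), 53.9 to 226 (WT RA) and 159 to 1005 (KO RA), with the top value in KO RA replicate 3. In that library Tagln was at 763 and Acta2 at 210 CPM. Col1a2 (10.4) and Col3a1 (15.9 CPM) were at their lowest of the KO RA libraries there, and Col1a1 (5.45) lay between the others. The sum of 6 cell cycle markers was 1262 to 1437, 1146 to 1231, 1033 to 1239 and 749 to 1916 CPM in the same order of groups. In KO RA replicate 3 Cdk1 (902), Pcna (672) and Ccnb1 (114) were the highest of the KO RA libraries, and Top2a (135), Mcm5 (64.2) and Mki67 (28.2 CPM) the lowest. The 4 haematopoietic markers summed to at most 0.557 CPM outside KO RA and 2.73 to 3.57 within it. Of these, Cd34 alone was at 2.38 to 3.27 CPM in KO RA. Ptprc and Spi1 were at no more than 0.297 CPM there and Hbb-bs at 0 in every library. The 3 pluripotent markers summed to 1207 to 2321 CPM in WT NO, 1420 to 1693 in KO NO, 2184 to 2866 in WT RA and 973 to 1242 in KO RA, so the RA groups did not overlap in this sum. Most of it was Pou5f1 (2118 to 2775 CPM in WT RA and 800 to 1167 in KO RA). Nanog overlapped between the RA groups (65.7 to 91.2 and 71.8 to 173 CPM), and Zfp42 was at no more than 0.0991 CPM. The 4 endothelial markers summed to at most 2.81 CPM outside KO RA and 4.16 to 12.6 within it, the 5 astroglial markers to 8.78 to 18.6 and the 5 markers of the oligodendrocyte lineage to 1.87 to 23.6 CPM over all libraries. Slc1a3 (7.47 to 16.3 CPM) made up most of the astroglial sum and Mbp (1.51 to 21.4 CPM) most of the oligodendrocyte sum. The part of any of these lists in the members' values was not tested.

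All members were detected in WT NO, and their levels spanned from 13.5 CPM for Mrps6 to 317 CPM for Mrpl42, with a median of 62.5 CPM. Levels can be compared between genes because the deposited counts were scaled for transcript length. Mrpl42 was at 313, 315 and 323 CPM (mean 317 ± 5.24, SD, n = 3), above every WT NO value of the next gene. Mrpl12, a stalk protein that also binds the mitochondrial RNA polymerase, followed at 253 ± 34.5 CPM. Mrpl20 (189 ± 49.4), Mrpl52 (174 ± 20.7) and Mrps21 (168 ± 36.4 CPM) came next and did not differ from each other beyond their spread. At the other end were Mrps6, which binds the small ribosomal RNA (13.5 ± 3.87), Mrpl48 (18.7 to 19.6), Mrpl19 (19.5 ± 1.14), Mrpl1 (19.8 ± 4.07) and Mrpl47 (22.5 ± 0.994 CPM), and the ranges of Mrps6 and Mrpl1 overlapped. Large-subunit proteins with bacterial homologues had the highest median (76.2 CPM) and small-subunit proteins specific to mitochondria the lowest (44.5 CPM) of the 4 ribosomal classes. The median coefficient of variation between libraries of a group was 9.34% in KO NO, 10.5% in WT RA and 12% in WT NO, against 65.5% in KO RA.

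**Figure D1:**
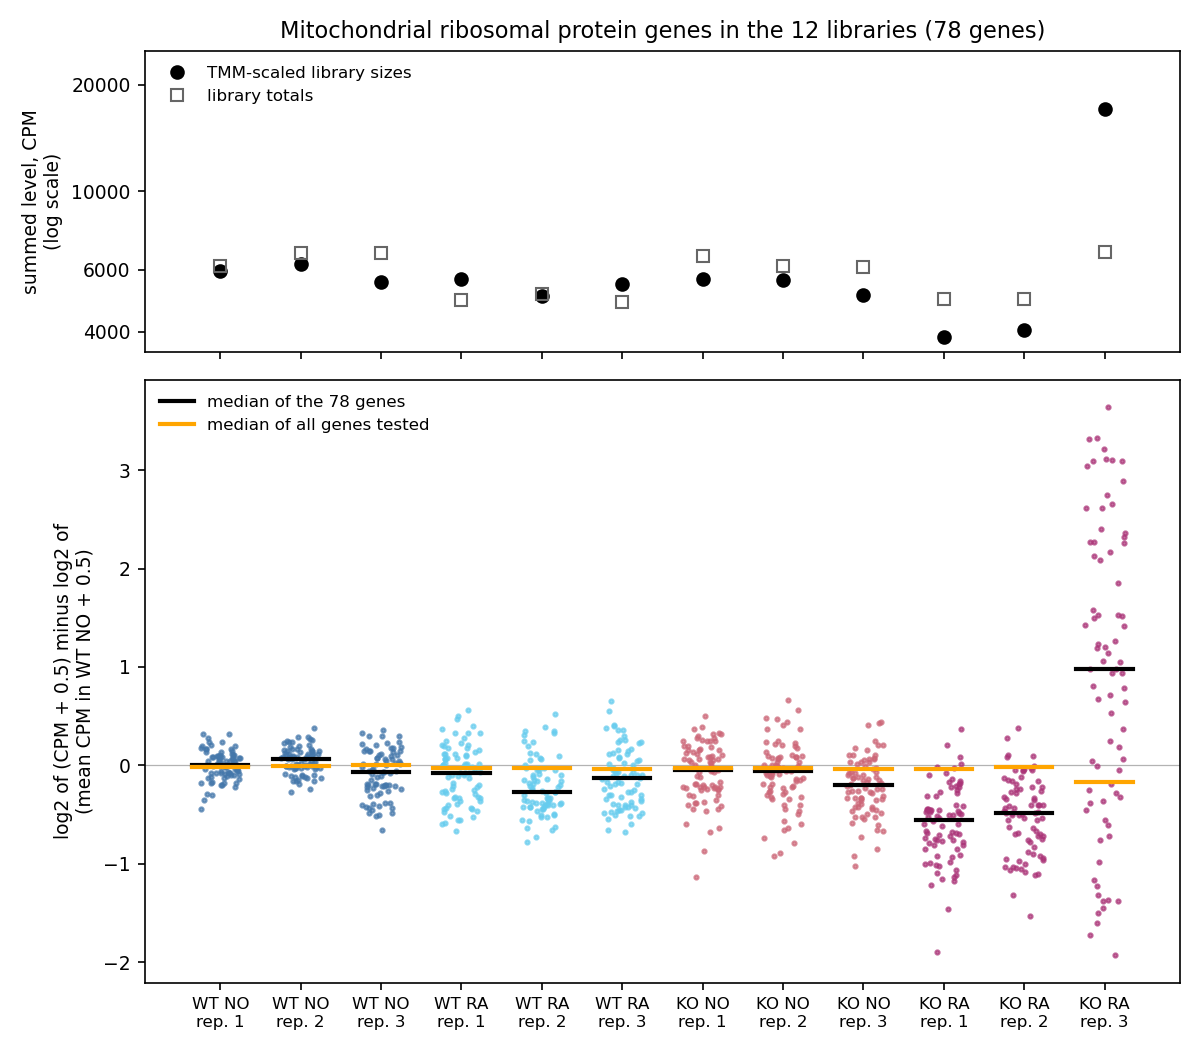
The upper panel plots the summed level of the 78 genes in each library in CPM on a log axis, with TMM-scaled library sizes (filled) and with library totals (open). The lower panel plots each gene as a point, as log2 of CPM plus 0.5 less log2 of its WT NO mean plus 0.5, with the medians of the 78 genes (black) and of all genes tested (orange). KO RA replicates 1 and 2 have members' medians of -0.551 and -0.485, and KO RA replicate 3 of 0.980.

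With TMM scaling, the summed level of the 78 genes was lower in KO RA replicates 1 and 2 than in any other library and several-fold higher in KO RA replicate 3. It was 5949, 6209 and 5532 CPM in the WT NO libraries, 5633, 5601 and 5088 in KO NO and 5632, 5043 and 5460 in WT RA. The KO RA libraries had 3877, 4039 and 17115 CPM. The first 3 groups had means of 5897 ± 341.6, 5441 ± 306.2 and 5378 ± 302.6 CPM (SD, n = 3). Scaled by library totals in place of TMM, the KO RA libraries summed to 4945, 4944 and 6729 CPM, next to 4908, 5120 and 4864 in WT RA, so the lower sum of KO RA replicates 1 and 2 against WT RA was seen with TMM scaling and not with library totals. With library totals WT NO summed to 6139, 6669 and 6665 CPM and KO NO to 6552, 6152 and 6101. The several-fold higher sum of KO RA replicate 3 was therefore not seen with library totals either. With that scaling the RA libraries of both genotypes, KO RA replicate 3 apart, lay below their NO libraries. As a share of all counts the 78 genes took 0.486 to 0.673% of a library. Among single genes, 66 and 59 of 78 were below all 3 WT NO libraries in KO RA replicates 1 and 2, against 22 in KO RA replicate 3, where 51 were above all 3. The same counts were not made for all genes, so they have no background. Against the WT NO mean, the median log2 difference of all genes was -0.034, -0.017 and -0.167 in KO RA replicates 1, 2 and 3. That of the members was -0.551, -0.485 and 0.980.

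The first comparison asked what loss of Faf2 did to these genes in uninduced cells. Few members were called, and with TMM scaling those called were lower in KO NO. With all 12 libraries, edgeR (quasi-likelihood test, p-values adjusted by Benjamini-Hochberg) called 0 of 78 members at an adjusted p below 0.05, beside 1.14% of all genes. At an unadjusted p below 0.05 there were 0 higher and 5 lower, beside 5.81% and 6.37% of all genes. DESeq2 called 1 member and limma-voom 15, and their shares of all genes were not counted. Without KO RA replicate 3 the shared spread was smaller (common dispersion 0.116 rather than 0.215) and 5 members were lower and 0 higher, beside 4.35% and 4.43% of all genes, so the members' share of 6.41% was near the background. The median log2 fold change was -0.07 in members and -0.01 in all genes. Groups did not overlap for 20 members lower and 5 higher in KO NO, with 15.2% and 15.5% of all genes. Leaving out 1 further library moved the 5 calls to between 2 (WT NO replicate 2, KO NO replicate 2 or 3) and 12 (WT NO replicate 3), with 3 without WT NO replicate 1.

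Mrpl53, a large-subunit protein specific to mitochondria, was at 26.0, 29.7 and 32.6 CPM in WT NO and 13.1, 15.3 and 14.2 in KO NO. The KO NO values lay wholly below, and Mrpl53 fell by 1.04 on the log2 scale (SE 0.14, adjusted p = 0.00217, edgeR quasi-likelihood without KO RA replicate 3; with all 12 libraries, adjusted p = 0.416). The gene lies at chr6:83085887-83088572 on the plus strand of GRCm39. Mrps36, the citric acid cycle protein, was at 71.4, 79.2 and 61.6 CPM in WT NO and 45.2, 44.8 and 37.0 in KO NO. It too did not overlap, and it fell by 0.73 (SE 0.14, adjusted p = 0.0116, same fit; adjusted p = 0.425 with all 12). Mrpl18, which binds 5S ribosomal RNA for import, was at 102, 99.5 and 68.7 CPM in WT NO and 59.4, 57.6 and 54.2 in KO NO, and fell by 0.65 (SE 0.15, adjusted p = 0.0257; adjusted p = 0.678 with all 12). The remaining calls were Mrps18a, a large-subunit protein at 68.7 to 77.6 CPM in WT NO and 39.7 to 55.6 in KO NO (fell by 0.65, SE 0.15, adjusted p = 0.0269; 0.209 with all 12), and Mrps6 (fell by 0.77, SE 0.21, adjusted p = 0.0471; 0.205 with all 12). Exons of Mrps6 are shared on the same strand with Slc5a3, so its count is uncertain. With library totals Mrpl53, Mrps36 and Mrpl18 stayed called and Mrps18a and Mrps6 did not.

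Mrpl36, a large-subunit protein with a bacterial homologue, went the other way. It was at 28.5, 24.0 and 15.9 CPM in WT NO and 32.6, 34.0 and 30.8 in KO NO, so the groups did not overlap, but the log2 difference of 0.52 (SE 0.20) did not pass (adjusted p = 0.127, edgeR without KO RA replicate 3). Mrps14 (0.44, SE 0.17, adjusted p = 0.131) and Mrpl48 (0.44, SE 0.14, adjusted p = 0.0719) were likewise wholly above WT NO without passing. With library totals Mrps14 was called higher (0.52, adjusted p = 0.0467, edgeR without KO RA replicate 3), and Mrpl36 (0.59, adjusted p = 0.0514) was not.

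Members on chromosomes 13 and 17 stood lower in KO NO together with the other genes of those chromosomes. In the fit without KO RA replicate 3, all tested genes of chromosome 17 had a median log2 fold change of -0.46 and those of chromosome 13 of -0.36, and the 8 and 5 members there had medians of -0.42 and -0.41. With library totals the medians of all genes there were -0.40 and -0.30. Of the 13 members on these 2 chromosomes 3 were called lower (Mrpl18, Mrps18a and Mrps36) and 8 were wholly lower, and of the 1510 tested genes there 16.5% were called lower. Elsewhere, 2 of 65 members were called lower (Mrpl53 and Mrps6), with a median of -0.03, beside 3.19% of 15817 genes and a median of 0.02. The 13 members ranged from -0.73 (Mrps36) to 0.52 (Mrpl36). Mrps10 at 0.01 and Mrpl36 were the 2 of the 13 with a value above 0. Less the median of its chromosome, the log2 difference was -0.91 for Mrpl53, -0.64 for Mrps6, -0.37 for Mrps36, -0.19 for Mrpl18 and -0.19 for Mrps18a. DNA copy number was not measured in these libraries, and its part in these values was not tested.

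**Figure D2:**
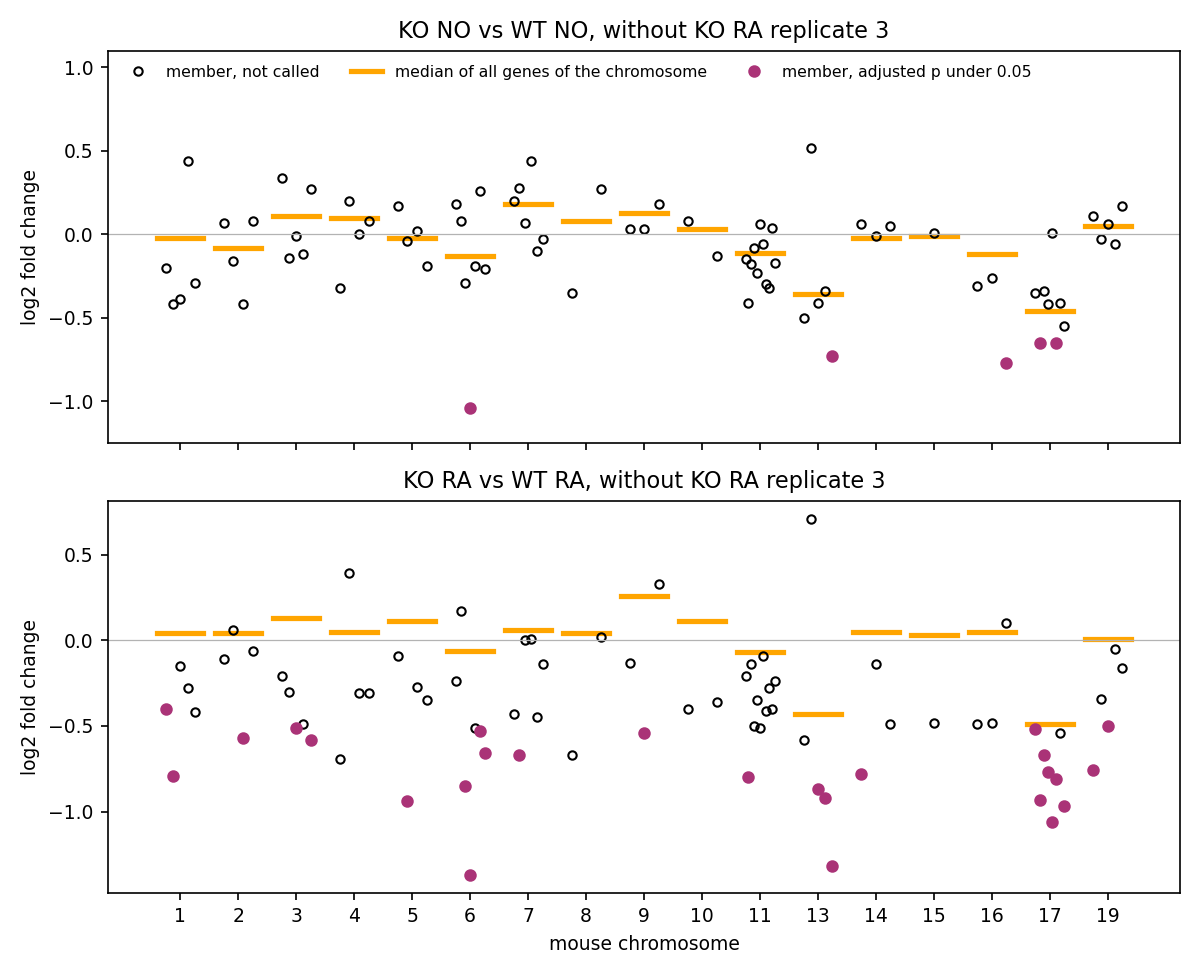
Log2 fold changes of the 78 genes by mouse chromosome without KO RA replicate 3, for KO NO vs WT NO (upper) and KO RA vs WT RA (lower), with open points for members not called, filled points for members at an adjusted p below 0.05 and bars at the median of all tested genes of the chromosome. In the upper panel the bars of chromosomes 13 and 17 lie at -0.36 and -0.46, and in the lower panel at -0.43 and -0.49.

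The second comparison asked how the KO differed from wildtype after RA. All 4 comparisons between groups share libraries with one another, so each is given by its own values. With all 12 libraries 0 members were higher and 1 was lower, beside 1.24% of all genes. That member was Mrps34, a small-subunit protein specific to mitochondria, at 60.5, 56.2 and 53.4 CPM in WT RA and 29.8, 28.4 and 23.0 in KO RA. All 3 KO RA values, replicate 3 included, lay below WT RA, and Mrps34 fell by 1.06 (SE 0.22, adjusted p = 0.0471, edgeR quasi-likelihood test). Leaving KO RA replicate 3 out, it fell by 0.97 (SE 0.19, adjusted p = 0.0132). Its exons are shared on the same strand with Nme3.

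Over all 12 libraries the members' median log2 fold change was 0.32, ranging from -1.06 to 2.30, and 13 members were wholly lower and 3 wholly higher in KO RA, beside 10.9% and 9.97% of all genes. The 3 higher were Mrpl36, Mrpl37 and Mrps22. Once KO RA replicate 3 was left out the members' median was -0.43 (all genes 0.01), and 70 of 78 members had a negative value. In that fit 26 members (33.3%) were called lower and 0 higher, beside 5.44% and 4.42% of all genes. The groups did not overlap for 51 members lower and 4 higher, beside 22.2% and 25.7% of all genes. The call depended on scaling: with library totals the median of all genes moved to 0.45 and that of the members to 0.01, and 5 members were called lower (Mrpl18, Mrpl33, Mrpl53, Mrps10 and Mrps36) and 7 higher (Mrpl35, Mrpl36, Mrpl37, Mrpl55, Mrps2, Mrps22 and Mrps31). Relative to the median of all genes the members' median was -0.44 under both scalings. A change of scaling moves all genes by nearly the same amount, so this difference could hardly change and is no test of the scaling. With library totals 38 of the 78 members had a negative value, 25 of them among the 26. Those 26 were chosen for low values in the same libraries, so this adds no separate support. The share of all genes called with library totals was not counted. Leaving out 1 further library moved the 26 calls to between 3 (KO RA replicate 1) and 42 (WT NO replicate 3), with 6 without KO RA replicate 2, 10 without WT RA replicate 1 and 12 without WT RA replicate 3.

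By role, 13 of 30 large-subunit proteins with bacterial homologues, 5 of 21 large-subunit proteins specific to mitochondria, 2 of 16 small-subunit proteins with bacterial homologues, 5 of 10 small-subunit proteins specific to mitochondria and Mrps36 were called lower without KO RA replicate 3. The medians of the 4 ribosomal classes were -0.50, -0.36, -0.33 and -0.54, and with library totals they were -0.06, 0.09, 0.12 and -0.10, so that 2 of them changed sign. Mrpl53 was at 29.2, 30.8 and 24.6 CPM in WT RA and 10.4, 11.5 and 48.8 in KO RA. Its first 2 KO RA values lay below and the third above all of WT RA, and it fell by 1.37 (SE 0.16, adjusted p = 0.00138, edgeR without KO RA replicate 3; -0.27, adjusted p = 0.812, with all 12). Mrps36 was at 55.0, 49.1 and 54.8 CPM in WT RA and 18.6, 24.1 and 56.5 in KO RA, with the same split, and fell by 1.32 (SE 0.16, adjusted p = 0.00189; -0.68, adjusted p = 0.327, with all 12). With library totals and without KO RA replicate 3, the values were -0.94 (adjusted p = 0.00920) for Mrpl53 and -0.88 (adjusted p = 0.00311) for Mrps36, so both stayed called.

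Mrps30, a large-subunit protein in spite of its name, was at 23.7, 25.9 and 21.7 CPM in WT RA and 13.4, 11.9 and 18.5 in KO RA. All KO RA values lay below, and it fell by 0.92 without KO RA replicate 3 (SE 0.14, adjusted p = 0.00530, edgeR quasi-likelihood). With library totals it stood at -0.49 (adjusted p = 0.0557), and with all 12 libraries at -0.71 (adjusted p = 0.126). Mrpl33, a small protein of the large subunit, was at 85.7, 69.5 and 80.4 CPM in WT RA and 38.8, 43.6 and 636 in KO RA, so replicate 3 was far above every other library. It fell by 0.94 without that library (SE 0.15, adjusted p = 0.00618), and with all 12 the value was 1.61 (SE 0.84, adjusted p = 0.336). Mrpl30 was at 128, 142 and 133 CPM in WT RA and 74.4, 82.0 and 511 in KO RA, with the same pattern, and fell by 0.79 without replicate 3 (SE 0.13, adjusted p = 0.00769; 0.73, adjusted p = 0.548, with all 12).

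The members fixed for their roles showed a range of responses in the fit without KO RA replicate 3. Mrpl12 was at 277, 193 and 236 CPM in WT RA and 140, 131 and 754 in KO RA, and fell by 0.80 (SE 0.17, adjusted p = 0.0167, edgeR quasi-likelihood; 0.54, adjusted p = 0.652, with all 12). Mrps12, a protein of the decoding centre, had a value of -0.14 (adjusted p = 0.685), and Mrpl58, a peptidyl-tRNA hydrolase built into the large subunit, of -0.41 (adjusted p = 0.0831). Mrpl32, which is matured by the m-AAA protease, was at 41.1, 27.2 and 43.4 CPM in WT RA and 21.4, 28.4 and 189 in KO RA and overlapped (-0.58, adjusted p = 0.145). Among the 3 relatives of bacterial S18, Mrps18a was called lower (-0.81, adjusted p = 0.0189; -0.93, adjusted p = 0.0645, with all 12), and Mrps18b (-0.54, adjusted p = 0.102) and Mrps18c (-0.35, adjusted p = 0.353) were not. Mrps18a in KO RA was at 33.0, 34.6 and 25.2 CPM, below WT RA at 54.5, 70.0 and 52.6 in every library. Mrps18c in KO RA was at 36.0, 48.3 and 548 CPM.

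**Figure D3:**
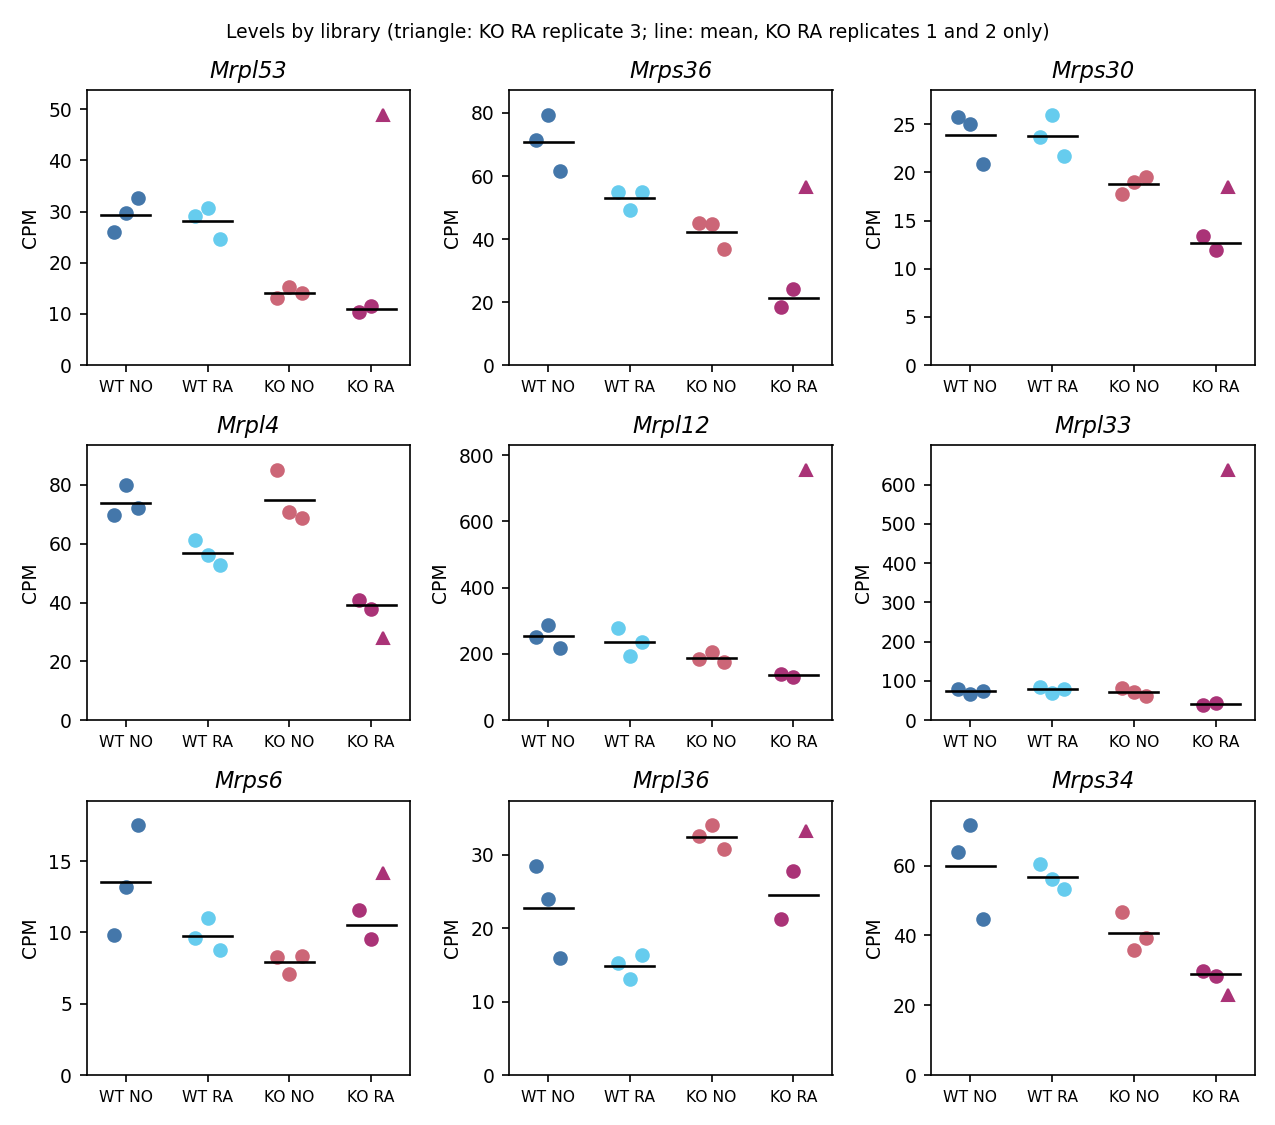
Level in CPM of 9 members in each of the 12 libraries (linear axes from 0, points for libraries, triangle for KO RA replicate 3, line for the mean, which leaves out KO RA replicate 3). Mrpl53, Mrps36, Mrpl12 and Mrpl33 had KO RA replicates 1 and 2 below and replicate 3 above WT RA, whereas Mrps30, Mrpl4 and Mrps34 were below WT RA in all 3 KO RA libraries and Mrpl36 above it. The 9 were chosen after their values were seen.

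Chromosomes 13 and 17 held 10 of the 26 members called lower in KO RA, out of 13 there. The 10 were Mrps27, Mrps30 and Mrps36 on chromosome 13 and Mrpl2, Mrpl14, Mrpl18, Mrpl28, Mrps10, Mrps18a and Mrps34 on chromosome 17. In the same fit the median of the 13 was -0.81 beside -0.46 for the 1510 genes there, of which 17.4% were called lower. With library totals the medians of all genes were 0.00 on chromosome 13 and -0.06 on chromosome 17. On the other chromosomes 16 of 65 members were called lower, with a median of -0.36 beside 0.05 for 15817 genes, of which 4.29% were called lower. The members were therefore below the other genes of their own chromosomes in both sets. Mrps10, a small-subunit protein, showed no difference in the uninduced cells (0.01, SE 0.16) and fell by 1.06 here (SE 0.18, adjusted p = 0.00852, edgeR without KO RA replicate 3; -0.01, adjusted p = 0.995, with all 12). Mrpl36 on chromosome 13 was at 15.3, 13.1 and 16.3 CPM in WT RA and 21.2, 27.8 and 33.3 in KO RA, wholly above, at 0.71 (SE 0.22, adjusted p = 0.0666), and with library totals it was called higher at 1.15 (adjusted p = 0.00303).

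The third comparison was the response of wildtype cells to RA. Changes were small and those called were decreases. With all 12 libraries edgeR called 0 members, beside 0.406% of all genes. At an unadjusted p below 0.05 it gave 0 higher and 3 lower, beside 6.76% and 5.79% of all genes. DESeq2 called 0 members and limma-voom 22, and their shares of all genes were not counted. Without KO RA replicate 3, which is in neither group, 6 members were called lower and 0 higher, beside 5.13% and 5.65% of all genes, and the members' median log2 fold change was -0.15 (all genes 0.00). The groups did not overlap for 19 members lower and 5 higher, beside 14.0% and 15.1% of all genes. With library totals, which moved the median of all genes to -0.26 and that of the members to -0.42, 33 were called lower and 0 higher. The share of all genes called lower was not counted with that scaling, so the 33 cannot be set against a background. The 6 calls moved to between 0 (without WT NO replicate 2, WT RA replicate 1 or WT RA replicate 3) and 19 (without WT NO replicate 3), with 1 to 3 without WT NO replicate 1, WT RA replicate 2, KO NO replicate 2 or 3, or KO RA replicate 1 or 2.

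All 6 members called lower without KO RA replicate 3 were large-subunit proteins. The large-subunit classes (bacterial homologues, specific to mitochondria) held 30 and 21 members, and the small-subunit classes 16 and 10. In that order the class medians were alike, at -0.17, -0.14, -0.13 and -0.14 in the same fit. With library totals small-subunit proteins were called lower too, among them Mrps2, Mrps7, Mrps25 and Mrps26. A difference between the subunits was not tested. Mrpl55, a large-subunit protein with a bacterial homologue, was at 118, 105 and 98.3 CPM in WT NO and 79.4, 74.2 and 79.7 in WT RA. The groups were apart, and it fell by 0.46 (SE 0.10, adjusted p = 0.0203, edgeR quasi-likelihood without KO RA replicate 3). Mrpl44, an RNase III-like protein of the large subunit, was at 30.8, 30.5 and 37.1 CPM in WT NO and 23.9, 23.0 and 23.0 in WT RA and fell by 0.49 (SE 0.13, adjusted p = 0.0341). Mrpl38 (fell by 0.37), Mrpl10 (fell by 0.39), Mrpl16 (fell by 0.49) and Mrpl15 (fell by 0.34) had adjusted p-values of 0.0367, 0.0442, 0.0476 and 0.0499. The adjusted p-values of the 6 were 0.388 to 0.710 with all 12 libraries. All 6 remained called with library totals. Mrpl23, Mrpl14, Mrpl9, Mrps33 and Mrpl48 were wholly above WT NO without passing, led by Mrpl23 at 0.51 (SE 0.15, adjusted p = 0.0577) and Mrpl14 at 0.40 (SE 0.13, adjusted p = 0.0714). Mrpl14 was at 32.9, 32.4 and 33.4 CPM in WT NO and 42.8, 43.3 and 44.0 in WT RA.

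The fourth comparison was the response of KO cells to RA. With all 12 libraries 1 member was called lower and 0 higher, beside 5.48% of all genes. That was Mrpl4, a large-subunit protein with a bacterial homologue, at 84.9, 70.7 and 68.9 CPM in KO NO and 40.7, 37.9 and 28.1 in KO RA. All 3 KO RA values lay below, and Mrpl4 fell by 1.07 (SE 0.20, adjusted p = 0.0131, edgeR quasi-likelihood), or by 0.94 without KO RA replicate 3 (SE 0.13, adjusted p = 0.00162). The members' median over all 12 libraries was 0.28, and 20 members were wholly lower and 1 (Mrps6) wholly higher, beside 17% and 13.2% of all genes.

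Without KO RA replicate 3, 29 members (37.2%) were called lower and 0 higher, beside 7.54% and 8.48% of all genes. The median was -0.45 (all genes -0.02), 74 of 78 members had a negative value, and the groups did not overlap for 65 members lower and 2 higher, beside 28.3% and 27.4% of all genes. With library totals the members' median was -0.32 (all genes 0.10) and 13 were called lower and 0 higher, all 13 among the 29. The share of all genes called was not counted with that scaling. Leaving out 1 further library moved the 29 calls to between 4 (KO RA replicate 1) and 46 (WT NO replicate 3), with 8 without KO RA replicate 2, 13 without KO NO replicate 1 and 15 without KO NO replicate 2. By role, 13 of 30, 7 of 21, 5 of 16 and 3 of 10 were called lower in the order given above, and Mrps36. The medians of those 4 classes were -0.47, -0.45, -0.44 and -0.44, and -0.34, -0.32, -0.31 and -0.32 with library totals.

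Mrps36 was at 45.2, 44.8 and 37.0 CPM in KO NO and 18.6, 24.1 and 56.5 in KO RA, so replicates 1 and 2 were below and replicate 3 above KO NO, and it fell by 1.00 without replicate 3 (SE 0.16, adjusted p = 0.00325, edgeR quasi-likelihood; -0.36, adjusted p = 0.536, with all 12). Mrps15, whose bacterial relative binds early in assembly of the small subunit, was at 113 CPM in each KO NO library and 77.5, 66.3 and 189 in KO RA, and fell by 0.66 without replicate 3 (SE 0.12, adjusted p = 0.00501; -0.03, adjusted p = 0.965, with all 12). Mrpl52 was at 211, 170 and 159 CPM in KO NO and 100, 94.3 and 468 in KO RA, and fell by 0.90 without replicate 3 (SE 0.17, adjusted p = 0.00624; 0.30, adjusted p = 0.745, with all 12). Mrpl33 fell by 0.81 without replicate 3 (SE 0.15, adjusted p = 0.00591; 1.74, adjusted p = 0.220, with all 12). These 4 were called with library totals as well, without replicate 3. Mrpl42, the most abundant member, was at 292, 364 and 340 CPM in KO NO and 221, 240 and 2361 in KO RA, and fell by 0.54 without replicate 3 (SE 0.16, adjusted p = 0.0400; 1.5, adjusted p = 0.224, with all 12).

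The 4 members with a value above 0 without KO RA replicate 3 were Mrps6, Mrpl32, Mrpl14 and Mrps22. Mrps6 was at 8.26, 7.08 and 8.35 CPM in KO NO and 11.6, 9.51 and 14.2 in KO RA. All 3 libraries lay above KO NO, but the value of 0.41 did not pass (SE 0.23, adjusted p = 0.267, edgeR without KO RA replicate 3; 0.57, adjusted p = 0.189, with all 12). Mrpl14, at 28.2, 28.4 and 20.7 CPM in KO NO and 28.7, 31.9 and 25.2 in KO RA, was above KO NO in replicates 1 and 2 only (0.23, adjusted p = 0.318). On chromosomes 13 and 17, 6 of 13 members were called lower with a median of -0.58, and the 1510 genes there had a median of 0.00. Elsewhere 23 of 65 were called lower with a median of -0.44, and the other genes had a median of -0.02.

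The difference between the RA responses of KO and wildtype cells was tested as an interaction. No member passed, with all 12 libraries (0 called, beside 0% of all genes) or without KO RA replicate 3 (0 higher and 0 lower, beside 0.802% and 0.537%). At an unadjusted p below 0.05, edgeR gave 1 higher and 1 lower with all 12, beside 5.53% and 3.09% of all genes. Without KO RA replicate 3 it gave 1 higher and 20 lower, beside 9.30% and 9.62% of all genes. DESeq2 called 0 and 10 members and limma-voom 2 and 6 in these sets of libraries, and their shares of all genes were not counted. The members' median interaction was 0.35 with all 12 libraries (all genes 0.12) and -0.32 without KO RA replicate 3 (all genes 0.00). With library totals and without KO RA replicate 3 it was 0.07 beside 0.38 for all genes. The member with the smallest p in the fit without KO RA replicate 3 was Mrpl33, at -0.90 (SE 0.20, adjusted p = 0.0567), followed by Mrps10 at -1.07 (SE 0.24, adjusted p = 0.0611).

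**Figure D4:**
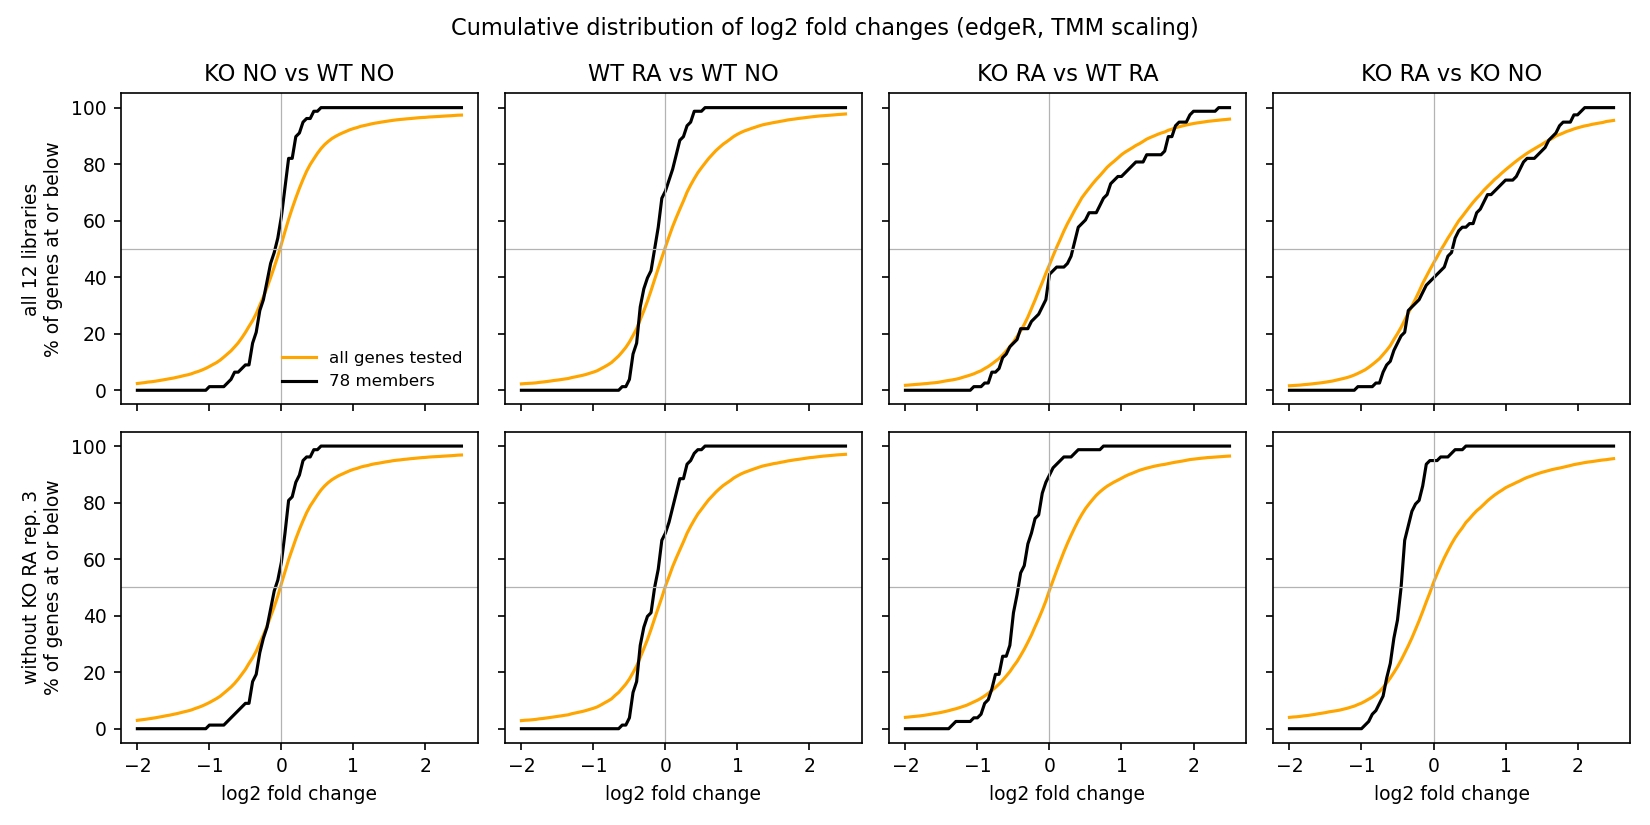
Percent of genes at or below each log2 fold change (edgeR, TMM scaling), for the 78 members (black) and all genes tested (orange), with all 12 libraries (upper row) and without KO RA replicate 3 (lower row). In KO RA vs KO NO the median of the members moved from 0.28 to -0.45 when KO RA replicate 3 was left out, and in KO NO vs WT NO it stayed at -0.08 and -0.07.

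KO RA replicate 3 differed from its 2 group mates most in short genes. The members' median log2 difference from the mean of replicates 1 and 2 was 1.49, beside -0.26 for all genes, and 64 members (82.1%) were above both, beside 38.5% of all genes. Members above all 11 other libraries numbered 48 (61.5%, beside 28.6%), and 12 members (15.4%, beside 33.9% of all genes) had their lowest value of the 12 libraries there. Among all genes the median difference was 1.34 for coding lengths up to 500 bases, 0.21 up to 1000, -0.44 up to 2000 and -1.0 above 2000. In the first 3 classes the 28, 39 and 11 members had medians of 1.96, 1.20 and 1.37. Median coding length was 582 bases for members and 1383 for all genes. In KO RA vs WT RA without KO RA replicate 3, all genes had medians of -0.29, -0.05, 0.08 and 0.17 in these length classes, and the members' medians were -0.45, -0.48 and -0.13. For KO RA vs KO NO, those of all genes were -0.14, -0.05, -0.02 and 0.03 and the members' -0.43, -0.49 and -0.34. In each class the members' median was below that of all genes in both comparisons. RNA quality was not measured in these files, and its part was not tested.

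Other genes of mitochondrial translation were read from lists. Without KO RA replicate 3, 4.35% of all genes were called lower in KO NO vs WT NO and 5.13% in WT RA vs WT NO. The shares were 5.44% in KO RA vs WT RA and 7.54% in KO RA vs KO NO. Shares called higher were 4.43, 5.65, 4.42 and 8.48%, in the same order. They are the background of the counts called in every list below. Among 5 mitochondrial ribosomal proteins under other symbols, 2 were called lower in KO RA vs WT RA (median -0.39, or 0.05 with library totals) and 3 in KO RA vs KO NO (median -0.56, or -0.43) without KO RA replicate 3, and 0 higher in either. Over all 12 libraries the medians were 0.16 and -0.07. Dap3, a GTP-binding protein of the small subunit, was at 103, 88.9 and 92.6 CPM in KO NO and 56.7, 70.6 and 87.3 in KO RA. It fell by 0.58 there (adjusted p = 0.0170, edgeR quasi-likelihood without KO RA replicate 3). Aurkaip1 and Ptcd3, both of the small subunit, fell by 0.71 and 0.56 in that comparison (adjusted p = 0.0149 and 0.00823, same fit). Chchd1 and Aurkaip1 fell by 0.68 and 0.65 against WT RA (adjusted p = 0.0145 and 0.0322, same fit). In KO RA replicate 3, which that fit leaves out, these genes lay above the groups compared. Chchd1 was at 1566 CPM there (183 to 222 in WT RA) and Aurkaip1 at 531 (104 to 134 in WT RA and 107 to 133 in KO NO). Ptcd3 was at 71.5 CPM (48.4 to 52.2 in KO NO).

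Of 25 genes of mitochondrial ribosome assembly, 4 were called lower in KO RA vs WT RA (median -0.20, or 0.25 with library totals) and 5 in KO RA vs KO NO (median -0.35, or -0.23) without KO RA replicate 3, and 0 higher. Their medians over all 12 libraries were -0.02 and -0.17. Tfb1m, the methyltransferase of the small ribosomal RNA, was at 23.0, 20.4 and 22.0 CPM in WT RA and 11.9, 12.2 and 24.6 in KO RA. It fell by 0.86 (adjusted p = 0.00618, edgeR quasi-likelihood without KO RA replicate 3). Mrm3, a methyltransferase of the large ribosomal RNA, fell by 0.68 against WT RA and by 0.95 against KO NO (adjusted p = 0.0254 and 0.00403, same fit). In KO RA replicate 3 it was at 16.7 CPM, above WT RA (12.4 to 15.1) and within KO NO (15.4 to 17.2). Of 20 mitochondrial aminoacyl-tRNA synthetase genes, 2 were lower in KO RA vs WT RA, and 6 were lower and 1 (Wars2) higher in KO RA vs KO NO, in the same fit. Of all genes 5.44% were lower against WT RA, and 7.54% were lower and 8.48% higher against KO NO. Aars2, the alanyl-tRNA synthetase, was at 6.63, 8.49 and 7.31 CPM in WT RA and 3.11, 3.41 and 1.49 in KO RA, and fell by 1.20 (adjusted p = 0.00604), or by 1.46 with all 12 libraries (adjusted p = 0.0389). Of 14 translation factors, 2 were lower in KO RA vs WT RA and 1 in KO RA vs KO NO without KO RA replicate 3. The count of 1 was near the share of all genes (7.54%). Gfm2, the recycling factor, was called in both (fell by 0.82 and 0.81, adjusted p = 0.0253 and 0.0171, same fit) and Guf1 against WT RA. In KO RA replicate 3 Gfm2 was at 4.46 CPM, below WT RA, and Guf1 at 28.8, above WT RA (14.1 to 19.8).

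Mitochondrial mRNAs are what these ribosomes translate. In WT RA vs WT NO 4 of 13 were called higher and 0 lower, with a median of 0.52, and in KO RA vs WT RA 4 were called lower and 0 higher, with a median of -0.72 without KO RA replicate 3 and 0.77 with it. With library totals and without KO RA replicate 3 these medians were 0.25 and -0.26. In KO RA vs KO NO 0 of the 13 were called higher and 0 lower, with a median of 0.08 without KO RA replicate 3 and 1.49 with it. The nuclear genes of the respiratory chain had medians of -0.52 in KO RA vs WT RA (31 lower and 2 higher of 85) and -0.46 in KO RA vs KO NO (27 lower and 1 higher), and with library totals -0.08 and -0.33. Cytosolic ribosomal protein genes had 63 of 80 lower in KO RA vs WT RA (median -0.78) and 45 of 80 higher in WT RA vs WT NO (median 0.59, or 0.32 with library totals), whereas in KO RA vs KO NO 2 were lower and the median was -0.10 (0.03 with library totals, so its sign depended on the scaling). Against WT RA the median with library totals was -0.33. The medians and counts of these lists are without KO RA replicate 3. Including it, the medians in KO RA vs WT RA and KO RA vs KO NO were 0.57 and 0.59 for the respiratory chain and 0.16 and 0.90 for the cytosolic ribosomal proteins. Among 10 tested regulators of nuclear mitochondrial genes, Esrra was called lower in KO RA vs WT RA, beside 5.44% of all genes. In KO RA vs KO NO Nrf1 was lower and Mycn higher, beside 7.54% and 8.48% of all genes. Nrf1, whose motif letters are shown above, was at 51.8, 40.7 and 48.8 CPM in KO NO and 31.6, 31.2 and 49.0 in KO RA and fell by 0.60 without replicate 3 (adjusted p = 0.0476, edgeR quasi-likelihood). Of 12 genes listed for mitochondrial RNA synthesis and stability, 2 (Lrpprc and Mtpap) were lower in KO NO vs WT NO. In WT RA vs WT NO 2 (Twnk and Supv3l1) were lower, and in KO RA vs KO NO 1 (Twnk). Shares of all genes were 4.35, 5.13 and 7.54%, in that order. Twnk is on this list although it is the mitochondrial DNA helicase, and its exons overlap those of Mrpl43. Of 12 chaperones and proteases, 2 were lower and 1 higher in KO RA vs WT RA and 4 lower in KO RA vs KO NO. Counts of 1 or 2 in lists of this size are not read as results about the lists.

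**Figure D5:**
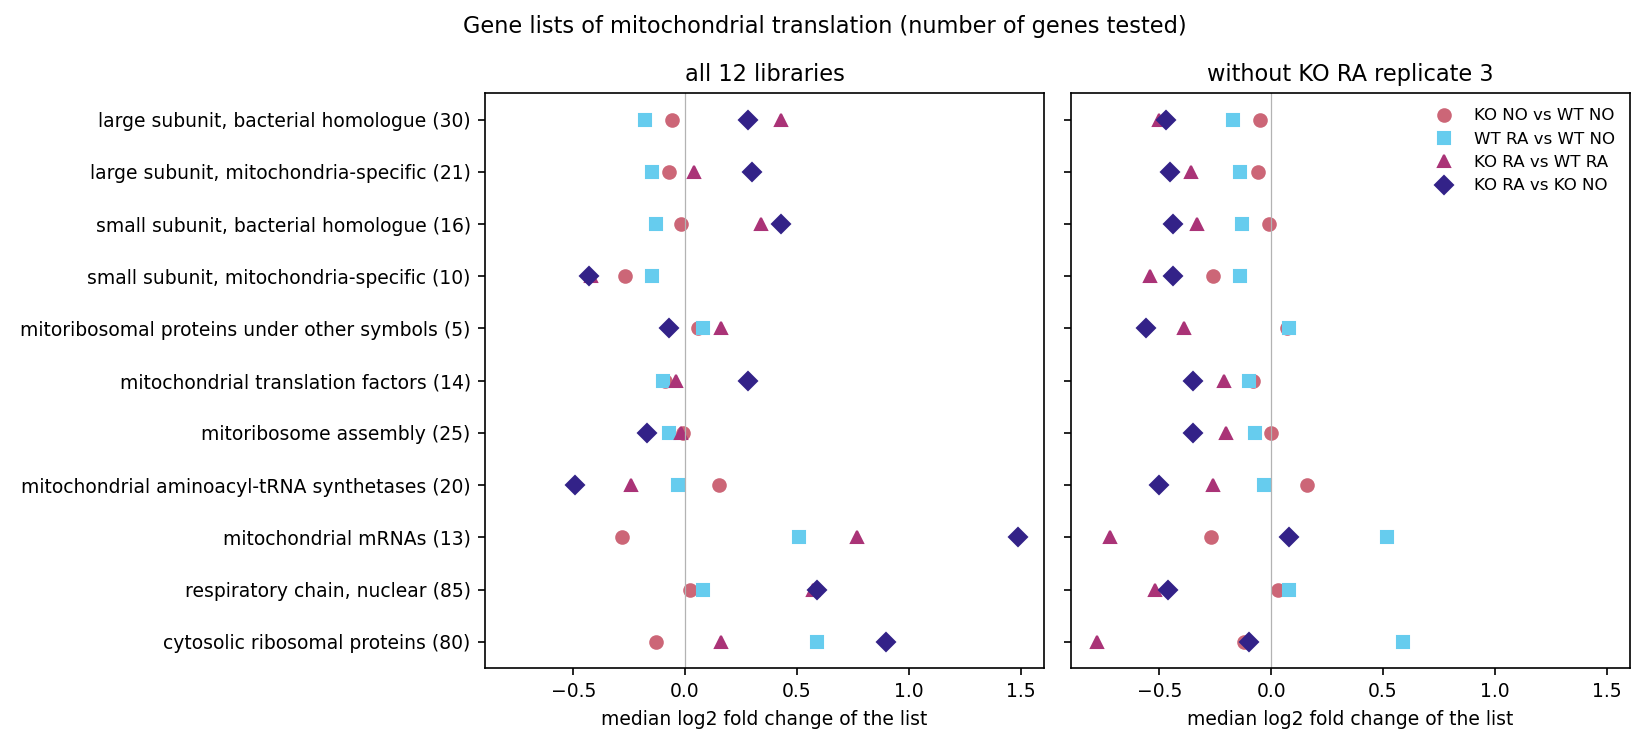
Median log2 fold change of 11 gene lists in 4 comparisons, with all 12 libraries (left) and without KO RA replicate 3 (right), and the number of genes tested in brackets. On the right the 4 classes of members lie between -0.33 and -0.54 in KO RA vs WT RA and between -0.44 and -0.47 in KO RA vs KO NO, and cytosolic ribosomal proteins lie at -0.78 and -0.10. With library totals the first 4 medians lie between -0.10 and 0.12 in KO RA vs WT RA.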

How the data were processed

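Per the labels and the study's methods, total RNA of 12 NE-4C cultures was sequenced as mRNA libraries, and the authors ran the nf-core RNA-Seq pipeline with STAR alignment to GRCm39 and Salmon quantification. The deposited table holds estimated counts (expected counts) per gene, scaled from abundance to library size, so that values are per transcript length within a library. In 3851 genes above 0 in exactly 1 library, the value ran against exonic length (Spearman -0.685). These were rounded to whole numbers.

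Genes were filtered with filterByExpr, scaled with TMM and fitted with edgeR 4.0.16 (quasi-likelihood, robust, 4 groups, no covariates) in R 4.3.3 over all 12 libraries and again without KO RA replicate 3, which tested 17327 genes. Calls are at an adjusted p below 0.05 (Benjamini-Hochberg, all genes tested). Alternatives were DESeq2 1.42.0, limma-voom (limma 3.58.1), other scalings and filters, a replicate block, the compared groups alone, and each library left out. Replicate libraries of a group are passages of 1 line, so p-values measure the spread between passages. Promoters and gene models came from GENCODE on GRCm39.

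Members and lists were chosen with earlier results of these data known. Named members were those called (where over 10, the 5 of smallest p in each direction), the 3 largest changes in each direction without overlap between groups, the 5 highest and 5 lowest in WT NO, members fixed for their roles and all on chromosomes 13 and 17. Depth was 17370069 to 30738717 counts per library.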

Additional observations from a re-analysis of the deposited data

Results flagged for a closer look

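In 4 members an effect ran in opposite directions in every library of the groups compared once KO RA replicate 3 was left out. Mrpl23, Mrps33 and Mrpl9 were lower after RA in KO cells and higher after RA in wildtype cells. The difference between the responses was -0.96 for Mrpl23 (adjusted p = 0.0689, edgeR quasi-likelihood interaction), -0.79 for Mrps33 (adjusted p = 0.0739) and -0.51 for Mrpl9 (adjusted p = 0.147). Mrpl23 went from 67.6, 66.5 and 55.3 CPM (NO) to 93.6, 74.9 and 99.9 (RA) in wildtype cells, and from 75.1, 88.2 and 65.6 to 50.7, 62.0 and 149 in KO cells, so KO RA replicate 3 lay on the other side. Mrps14 was higher in the KO than in wildtype cells without RA and lower after RA, with a difference of -0.73 (adjusted p = 0.165). None of the 4 passed the adjusted test. With library totals in place of TMM, Mrps14 stood at 0.52 without RA and 0.17 after it in KO against wildtype cells, so its directions were no longer opposite, and Mrpl9 stood at 0.00 for RA in KO cells and 0.13 in wildtype cells. Mrpl23 (-0.32 and 0.25) and Mrps33 (-0.30 and 0.10) kept opposite signs.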

How the results depend on the processing

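The number of members called changed with the test, the scaling and KO RA replicate 3. For the alternative tests, scalings and filters the share of all genes called was not counted, so those counts describe members only. Over all 12 libraries the 5 comparisons (KO NO vs WT NO, KO RA vs WT RA, WT RA vs WT NO, KO RA vs KO NO and the interaction) gave 0, 1, 0, 1 and 0 calls with edgeR, 1, 10, 0, 8 and 0 with DESeq2, and 15, 30, 22, 32 and 2 with limma-voom with quality weights. With library totals, and with only the groups compared, KO RA vs WT RA and KO RA vs KO NO gave 0 calls each. KO NO vs WT NO gave 2 calls with only the groups compared, and KO RA vs WT RA gave 0 with no filter beyond 1 count and with at least 10 counts in every library. Leaving out each library in turn gave 0 to 5, 0 to 26, 0 to 6, 0 to 29 and 0 calls, the upper ends being the fits without KO RA replicate 3.

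Over all 12 libraries the median log2 fold change of the members turned negative with limma-voom in KO RA vs WT RA (-0.39) and KO RA vs KO NO (-0.40) and with library totals in KO RA vs KO NO (-0.39). It ranged from -0.43 to 0.60, -0.45 to 0.61 and, for the interaction, -0.32 to 0.69 with 1 library left out. Among single members, limma-voom and the fit without KO RA replicate 3 turned the sign of Mrpl30 (-0.71 and -0.79) and Mrpl33 (-0.90 and -0.94) in KO RA vs WT RA and of Mrpl33 (-0.70 and -0.81) and Mrpl52 (-0.81 and -0.90) in KO RA vs KO NO. Over the fits that left out 1 library those values ranged from -0.79 to 1.23, -0.94 to 2.21, -0.81 to 2.34 and -0.90 to 0.74, in the same order. The cause was not tested. Members wholly lower numbered 46 in WT RA vs WT NO and 37 in KO RA vs KO NO with library totals, where the share of all genes was not counted. They numbered 51 and 65 in the KO RA comparisons (against WT RA and KO NO) without KO RA replicate 3, beside 22.2% and 28.3% of all genes.

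The alternatives without KO RA replicate 3 were chosen after seeing the data. The 5, 26, 6, 29 and 0 calls of edgeR became 12, 40, 19, 38 and 10 with DESeq2, and 18, 41, 25, 42 and 6 with limma-voom. With library totals they were 4, 12, 33, 13 and 0, with no filter beyond 1 count 4, 16, 1, 20 and 0, with at least 10 counts in every library 8, 26, 9, 27 and 2, and with only the groups compared 2, 36, 0 and 36 (the interaction uses all groups). Leaving out 1 further library gave 2 to 12, 3 to 42, 0 to 19, 4 to 46 and 0 to 6. Where KO RA was left with 1 library, that library was assumed to vary like the other groups. With library totals the medians were 0.01, -0.42, -0.32 and 0.07 in KO RA vs WT RA, WT RA vs WT NO, KO RA vs KO NO and the interaction, and with 1 further library left out that of KO NO vs WT NO ranged from -0.14 to 0.02.

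The replicate numbers are not stated to pair the libraries. Deviations of same-numbered libraries from their group means correlated at -0.215 to 0.046, which cannot show whether those cultures were collected together. With a replicate block the calls were 0, 0, 0, 1 and 0 over all 12 libraries and 3, 18, 1, 24 and 0 without KO RA replicate 3.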
